A study of Mus musculus with 4 samples.

Results

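The pancreatic elastase genes Cela1, Cela2a and Cela3b and the chymotrypsin C gene Ctrc were examined for peaks of Ptf1a and c-Myc in pancreas of Ela1-Myc mice. Members were all peaks of the deposited lists, on the mouse build mm9, whose midpoint lay in 1 of 3 windows around these genes. The windows were chromosome 15 from 100460000 to 100550000 for Cela1, chromosome 4 from 141330000 to 141440000 for Cela2a and Ctrc, and chromosome 4 from 136940000 to 137030000 for Cela3b. They held 37 of 17632 Ptf1a peaks and 15 of 5464 Myc peaks, or 52 of 23096 peaks in all.

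Chromatin immunoprecipitation followed by sequencing was done on pancreas of 8-week-old mice that carry a c-Myc transgene under the promoter of elastase 1, which is active in acinar cells. For Ptf1a the library was made from 1 mouse, and for Myc from a pool of 3 mice with the antibody N262. All libraries came from Ela1-Myc mice, so no library without the transgene was compared. Input DNA of 5 mice for Ptf1a and of the same 3 mice for Myc was not analysed here. Cela1 is the mouse gene of the promoter that drives the transgene. The species and extent of the promoter in the transgene were not given in the sources used here, and whether reads from transgene copies fell into the Cela1 window was not tested. Peak lists hold no expression values, so the pancreas label could not be checked against marker genes.

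Elastases and chymotrypsin C are serine proteases that acinar cells store as inactive precursors in zymogen granules and release into the gut. The elastases cut dietary protein, and chymotrypsin C also governs how other digestive precursors are activated or degraded. Their genes are textbook targets of PTF1, a complex of Ptf1a, a common E protein and Rbpj or its acinar form Rbpjl. PTF1 reads a bipartite DNA element, in which an E-box bound by the Ptf1a dimer stands near a TC-box bound by the Rbpj subunit. c-Myc pairs with Max and binds E-boxes, above all the form CACGTG.

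The stretches just upstream of the annotated starts of the elastase genes are shown because they are where PTF1 elements of acinar genes are best known. RefSeq promoter sequences were matched by symbol for 3 of the 4 genes, and none was matched for Ctrc. Printed are the 250 bases before each start on GRCm38.p6, all from the minus strand: chr15:100687921-100688170 for Cela1, chr4:141826006-141826255 for Cela2a and chr4:137430521-137430770 for Cela3b. These positions are on another build than the peaks and cannot be set beside them. Capitals mark every E-box, spelled CANNTG. They also mark TGGGAA on either strand, and the TC-box part of a PTF1 arrangement, which is spelled out after the sequences.
Cela1: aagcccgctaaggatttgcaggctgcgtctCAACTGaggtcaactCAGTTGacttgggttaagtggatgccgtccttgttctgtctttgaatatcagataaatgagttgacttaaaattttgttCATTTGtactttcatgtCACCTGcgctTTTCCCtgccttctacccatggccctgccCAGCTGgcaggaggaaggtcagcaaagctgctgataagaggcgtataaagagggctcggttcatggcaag
Cela2a: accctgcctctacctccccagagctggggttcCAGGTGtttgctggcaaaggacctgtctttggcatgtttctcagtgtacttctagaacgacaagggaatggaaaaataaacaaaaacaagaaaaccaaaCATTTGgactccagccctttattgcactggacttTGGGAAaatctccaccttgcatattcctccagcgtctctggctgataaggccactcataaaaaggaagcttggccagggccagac
Cela3b: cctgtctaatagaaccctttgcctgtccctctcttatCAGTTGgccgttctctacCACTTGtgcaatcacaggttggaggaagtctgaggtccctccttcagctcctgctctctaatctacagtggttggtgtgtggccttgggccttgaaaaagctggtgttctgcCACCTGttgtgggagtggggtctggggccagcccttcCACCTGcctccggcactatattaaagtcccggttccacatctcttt

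Cela1 held a full PTF1 arrangement, CACCTGcgctTTTCCC, at 109 to 94 bases before the start, with 4 bases between its E-box and its TC-box part. The search took CANNTG, then 4 to 6 or 14 to 17 bases, then TTNCCC, on both strands of the 300 bases from 250 before to 50 after the start. Of 32851 RefSeq promoters, 2.08% held such an arrangement with either spacing, and 0.904% held the shorter one. Neither Cela2a nor Cela3b had one in this window, which says only that these letters were not there.

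E-boxes were present before all 3 starts, with 5 at Cela1, 2 at Cela2a and 4 at Cela3b, while 72.3% of all promoters held at least 1. The E-box CACCTG, which is also the E-box of the Cela1 arrangement, stood once at Cela1, once at Cela2a on the opposite strand, and at 83 to 78 and 46 to 41 bases before the Cela3b start; it was found in 20.2% of all promoters. CAGCTG occurred at Cela1 only among the 3, and in 16.3% of promoters. TGGGAA occurred at Cela2a only, at 85 to 80 bases before the start, and in 25.6% of promoters. The Myc form CACGTG was found at none of the 3 and in 7.15% of promoters. These matches describe sequence and are not binding sites.

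The annotation also bears on how peaks are read. RefSeq lists Ctrc as a transcribed pseudogene in its C57BL/6J reference, next to Cela2a and followed by the lncRNA Ctrcos, and the strain of the Ela1-Myc mice was not given in the sources used here. Cela3b stands next to its paralog Cela3a, and over 237 aligned bases upstream of their starts they were 92.4% identical. How reads that fit both copies were placed was not given in the sources used here, so peaks near Cela3b are uncertain in that respect. The nearest other protein-coding genes are Bin2 and Galnt6 around Cela1, Casp9 and Efhd2 around Cela2a and Ctrc, and Cdc42 and 1700013G24Rik around the Cela3 pair. No mm9 gene positions were at hand, so a peak is assigned to a window and not to a promoter, a gene body or 1 of these genes.

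All 3 loci were among the parts of the genome richest in Ptf1a peaks. The Cela1 window held 12, the Cela2a and Ctrc window 14 and the Cela3b window 11, or 12.8 peaks per 100 kb over the windows against 0.669 over the genome. Of 29264 stretches of 90 kb laid end to end along the assembled chromosomes, with a mean of 0.601 Ptf1a peaks, 0.0957% held at least as many as Cela1 and 0.12% at least as many as Cela3b. Of 23941 stretches of 110 kb, 0.0585% held at least as many as the Cela2a and Ctrc window. The windows were drawn around genes and the stretches were not, and stretches that overlap the windows were not left out. These shares therefore describe the windows and are no test.

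Fewer Myc peaks were listed at Cela1 than at the other loci. Cela1 held 2, Cela2a and Ctrc 7 and Cela3b 6. Of the stretches of 90 kb, 3.93% held at least 2 Myc peaks and 0.0444% at least 6, and of those of 110 kb, 0.0292% held at least 7. Among the stretches with at least as many Ptf1a peaks as the window in question, 75.0% of 28 had at least the 2 Myc peaks of Cela1, 14.3% of 14 the 7 of Cela2a and Ctrc, and 14.3% of 35 the 6 of Cela3b. Stretches that overlap the windows were not left out here either. With 1 library per factor, whether the windows differ in Myc peaks was not tested.

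**Figure D1:**
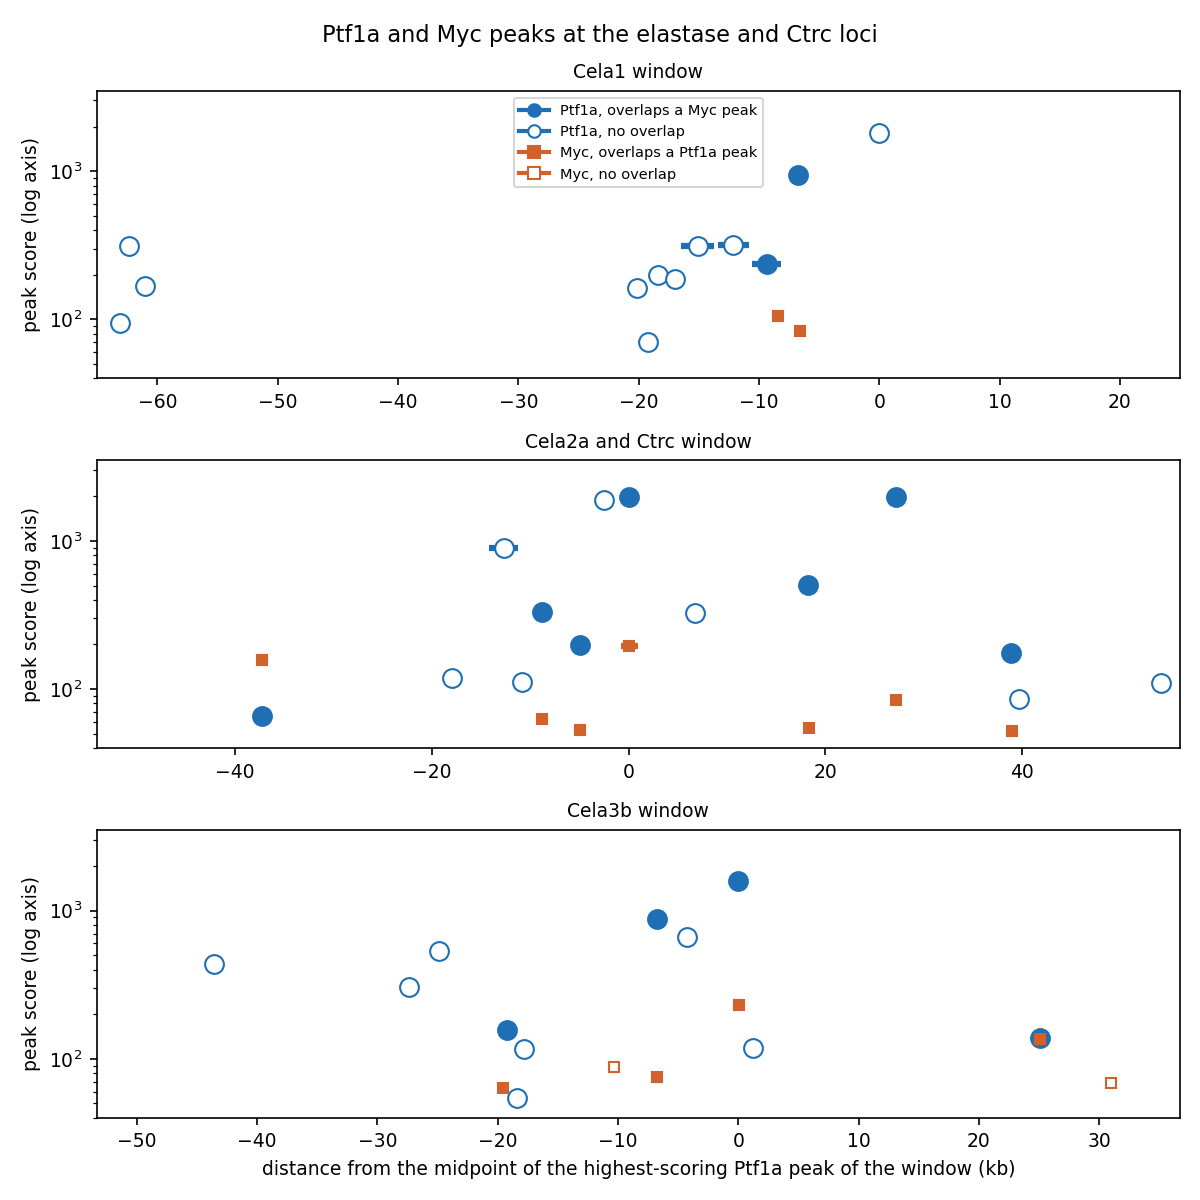
Score of each peak (log axis) against its distance in kb from the midpoint of the highest-scoring Ptf1a peak of its window. Horizontal bars show peak width, circles are Ptf1a and squares Myc, and filled symbols overlap a peak of the other list. The Cela1 window has 12 circles and 2 squares, both squares near the right end of a dense row of Ptf1a peaks, while in the Cela2a and Ctrc window all 7 squares are filled.

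The scores of the Ptf1a peaks in the windows were high for the list but spread widely. A score is the peak caller's value for a peak, on a scale that no source used here states, and the lists start at about 50.0. Members ranged from 54.17 to 1980.33, with a median of 237.32 (quartiles 118 and 532), against a median of 116.12 in the whole list (quartiles 70.5 and 266). Of the 37, 32 scored at least 100, or 86.5%, against 56.6% of the list. The top 10% of the list, which starts at 596, held 9 of them, or 24.3% (background 10.0%). The medians by window were 217.7 for Cela1, 261.92 for Cela2a and Ctrc and 305.31 for Cela3b, and the ranges of the windows overlapped almost wholly.

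Myc peaks in the windows were ordinary by score. They ranged from 52.18 to 229.88, with a median of 83.72 against 75.19 in the whole list. Of the 15, 5 scored at least 100, or 33.3%, against 28.7% of the list, a share near the background. In the top 10% of the Myc list, which starts at 159, were 2 of the 15, or 13.3% (background 10.0%).

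Cela1, an elastase gene, carried a long run of closely spaced Ptf1a peaks. From 100504300 to 100518809 on chromosome 15, 8 Ptf1a peaks followed each other with gaps of 53 to 804 bp, and together they covered 12508 bp of 14.5 kb, or 86.2%. When Ptf1a peaks at most 1 kb apart were joined, a distance chosen after seeing the data, the list fell into 16151 runs, of which 1, the run at Cela1, had 8 peaks or more (0.00619%). The run with the next most peaks had 6, and the next most covered was 6.51 kb. At a joining distance of 5 kb the run was the same stretch, and 11 of 13583 runs had at least 8 peaks. With peaks at most 12500 bp apart joined, the chain had 9 peaks, and 47 of 11166 chains (0.421%) had at least as many.

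**Figure D2:**
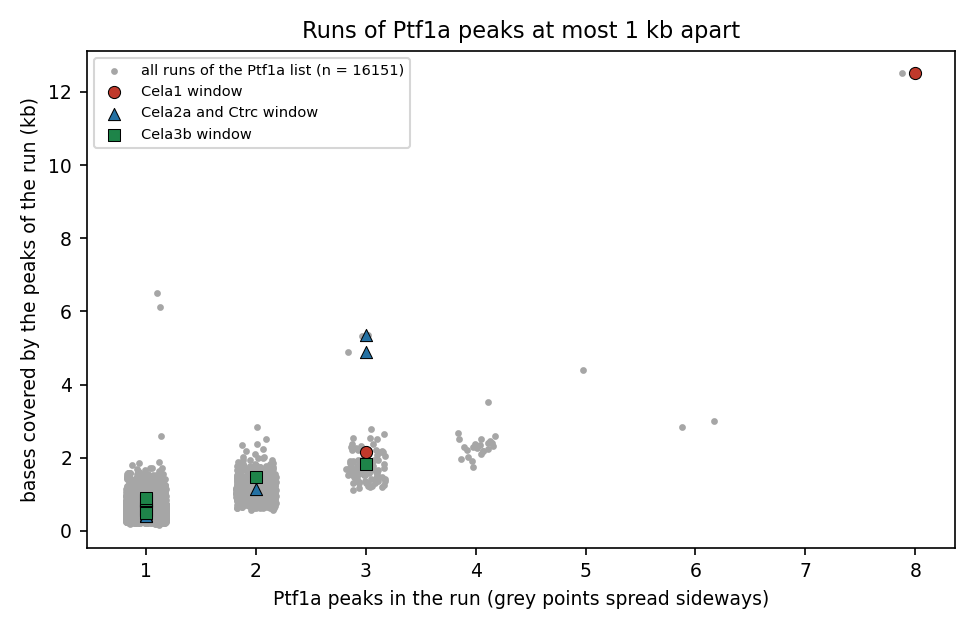
Bases covered (kb) against the number of Ptf1a peaks for every run of Ptf1a peaks at most 1 kb apart. Each grey point is 1 of 16151 runs and coloured symbols are runs in the windows. The Cela1 run stands alone at 8 peaks and 12508 bp, and the 2 triangles at 3 peaks near 5 kb are runs in the Cela2a and Ctrc window.

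Within the run, 3 wide peaks stood next to each other, and a narrower, stronger one followed at its high-coordinate end. From low to high coordinate the scores were 162.41, 70.07, 198.09, 188.26, 313.13, 316.47, 237.32 and 948.25. The peaks at 100508558 to 100511270, 100511599 to 100514211 and 100514445 to 100516896 were 2713, 2613 and 2452 bp wide, against a median of 515 bp in the list. Counting the peak itself, 5, 6 and 8 peaks of the list were at least as wide. The scores of these 3 wide peaks were above 78.4%, 78.7% and 72.3% of the list. The peak with the score of 948.25, at 100517701 to 100518809, was 1109 bp wide and scored above 95.6% of the list. It was the last of the run toward higher coordinates.

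The strongest Ptf1a peak of the Cela1 window stood outside the run. It lay 5871 bp beyond it at 100524681 to 100525363, was 683 bp wide and scored 1807.77, above 99.3% of the list. No Myc peak overlapped it, and the nearest Myc peak was 5.86 kb away. The other 3 Ptf1a peaks of the window lay together at 100461669 to 100464312 with scores of 95.29, 312.57 and 168.1, over 50 kb from the nearest Myc peak.

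Both Myc peaks of the Cela1 window lay at the high-coordinate end of the run. The stronger, at 100516117 to 100517050 with a score of 105.84, shared 780 bp with the edge of the wide Ptf1a peak that ends at 100516896, and their midpoints were 913 bp apart. The other, at 100517974 to 100518825 with a score of 83.72, shared 836 bp with the Ptf1a peak of score 948.25, with midpoints 144.5 bp apart. They scored above 74.7% and 58.8% of the Myc list. The other 6 Ptf1a peaks of the run had no Myc peak, so 2 of 12 Ptf1a peaks of the window were shared, or 16.7% (95% Wilson interval 4.7 to 44.8%), close to the 13.4% of the whole Ptf1a list.

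The window of Cela2a, a second elastase, and Ctrc held the 3 highest-scoring Ptf1a peaks of the loci and the single widest one. The leading peak, at 141383135 to 141384881, scored 1980.33 and was 1747 bp wide. Next came 141410698 to 141411565, with a score of 1963.7 and 868 bp, and 141380603 to 141382473, with 1873.12 and 1871 bp. These 3 scored above 99.5%, 99.5% and 99.4% of the list.

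Most of these peaks stood in 1 long chain. With peaks at most 12500 bp apart joined, 12 of the 14 formed a chain of 58.0 kb from 141365848 to 141423845, and 13 of 11166 chains of the list (0.116%) had at least 12 peaks. Its denser part, from 141365848 to 141384881, held 7 peaks at most 5 kb apart that covered 56.0% of 19.0 kb. The widest member of all loci, at 141369828 to 141372796, belonged to it: it was 2969 bp wide, with 4 peaks in the list at least as wide, itself included, and scored 901.89. No Myc peak overlapped it.

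Every Myc peak of the Cela2a and Ctrc window lay on a Ptf1a peak. All 7 were shared (Wilson interval 64.6 to 100.0%), against 41.4% of the whole Myc list. Of the Ptf1a peaks 7 of 14 were, or 50.0% (26.8 to 73.2%), against 13.4% of the Ptf1a list. In other stretches of 90 kb with at least 11 Ptf1a peaks, 77.9% of Myc and 21.1% of Ptf1a peaks were shared. The strongest Myc peak, at 141383243 to 141384945 with a score of 194.42, lay on the strongest Ptf1a peak. At 1703 bp it was wider than 98.4% of the Myc list. At 141410675 to 141411623 a Myc peak of score 85.03 enclosed the second Ptf1a peak, with midpoints 17.5 bp apart. The third Ptf1a peak, of score 1873.12, had none, although the nearest Myc peak began 0.77 kb away.

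Outside the Myc peaks at 141346307 and 141401983, Myc scores at this locus fell in the same order as those of their Ptf1a partners. At 141346307 to 141347236 the second strongest Myc peak, with 156.35, enclosed the weakest Ptf1a peak of the window, at 141346579 to 141347022 with 66.06. At 141401983 to 141402732 a Myc peak of 54.85 lay on a Ptf1a peak at 141401953 to 141402567 with 500.83. The remaining Myc peaks, in the order given next, scored above 30.9%, 8.3% and 6.6% of the Myc list. At 141374828 to 141375557 a Myc peak of 62.45 lay inside the Ptf1a peak at 141374406 to 141376046, which scored 329.21. Another, of 52.68 at 141378741 to 141379377, lay inside the Ptf1a peak at 141378476 to 141379746, which scored 197.89. The last, of 52.18 at 141422550 to 141423406, shared 653 bp with the Ptf1a peak at 141422482 to 141423202, which scored 173.9.

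At Cela3b, the third elastase, no Ptf1a peak was as wide as the widest of the other loci. Their widths ran from 478 to 910 bp, against 423 to 2713 bp at Cela1 and 413 to 2969 bp at Cela2a and Ctrc. They covered 8.45% of the window, against 17% and 13.5%. The strongest lay at 136992853 to 136993748 with a score of 1590.58, above 98.9% of the list, followed by 136986158 to 136986992 with 883.1 and 136988587 to 136989496 with 658.47. With peaks at most 12500 bp apart joined, a chain of 9 peaks from 136965669 to 136994796 held all 3, and 0.421% of the chains of the list had at least 9.

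Myc peaks at Cela3b fell both on and off Ptf1a peaks. On the leading Ptf1a peak lay the strongest Myc peak of all the windows, at 136992850 to 136993867, with a score of 229.88, above 96.8% of the Myc list. The second Ptf1a peak, 883.1, lay wholly inside a Myc peak of only 75.45 at 136986050 to 136987005. The third, 658.47, had no Myc peak within 1.58 kb.

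Sites of lower Ptf1a score within the window were also shared at Cela3b. At 137017922 to 137018892 a Myc peak of 136.09, its second strongest here, enclosed a Ptf1a peak of 137.82 at 137018150 to 137018627, with midpoints 18.5 bp apart. At 136973443 to 136974097 a Myc peak of 63.29 shared 458 bp with a Ptf1a peak of 155.44 at 136973640 to 136974460. The 2 Myc peaks of the windows without a Ptf1a peak were both here: 136982587 to 136983316, score 88.2 and 2.84 kb from the nearest Ptf1a peak, and 137023859 to 137024650, score 68.96 and 5.23 kb away. Thus 4 of 6 Myc peaks were shared, or 66.7% (30.0 to 90.3%), against 41.4% of the whole Myc list. Of the Ptf1a peaks 4 of 11 were, or 36.4% (15.2 to 64.6%), against 13.4% of the Ptf1a list. In the other stretches rich in Ptf1a peaks these shares were 77.9% and 21.1%.

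Over the windows, 13 of 15 Myc peaks overlapped a Ptf1a peak, or 86.7% (62.1 to 96.3%), against 41.4% of the whole Myc list. The windows are rich in Ptf1a peaks, so other rich stretches were set beside them. In 34 other stretches of 90 kb with at least 11 Ptf1a peaks, 81 of 104 Myc peaks were shared, or 77.9%. Overlap with Myc was found for 13.4% of the Ptf1a list and 21.1% of 432 Ptf1a peaks in those stretches. In the windows it was found for 13 of 37 Ptf1a peaks, or 35.1% (21.8 to 51.2%). The share fell where weak Myc peaks were left out. Among peaks with a score of at least 100 in both lists it was 4 of 32, a fraction of 0.125, against 5.61% of the list. Among peaks above the median score of their list it was 7 of 30, a fraction of 0.233, against 9.58%. Shares differed between windows within wide intervals, and their difference was not tested. Peaks are not replicates, so the intervals are no test against the list or the other stretches either.

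Shared Ptf1a peaks of the windows had a median score of 329 and the others 193, in a list where the medians were 177 and 111. The ranges overlapped almost wholly, from 66.06 to 1980.33 and from 54.17 to 1873.12. Of the 9 members in the top 10% by score, 5 were shared, or 55.6%, against 28.5% of such peaks in the list. Of the 19 in the top 10% by width, 9 were shared, or 47.4%, against 30.8%. For Myc the medians were 83.7 for 13 shared and 78.6 for 2 unshared peaks, and the 2 Myc members in the top 10% by score were both shared (background 50.6%).

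Most partners lay nearly centre on centre. The 13 pairs had a median midpoint distance of 58.0 bp, from 17.5 to 913 bp, against 110 bp over 2368 pairs of the lists. In 9 of 13 pairs, or 69.2%, midpoints were at most 100 bp apart, against 46.1% in the lists. The widest distance was that of the Myc peak on the edge of the Cela1 run. Also above 100 bp were a pair at Cela3b (280 bp), the other Cela1 pair (144.5 bp) and a pair at Cela2a and Ctrc (136 bp).

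**Figure D3:**
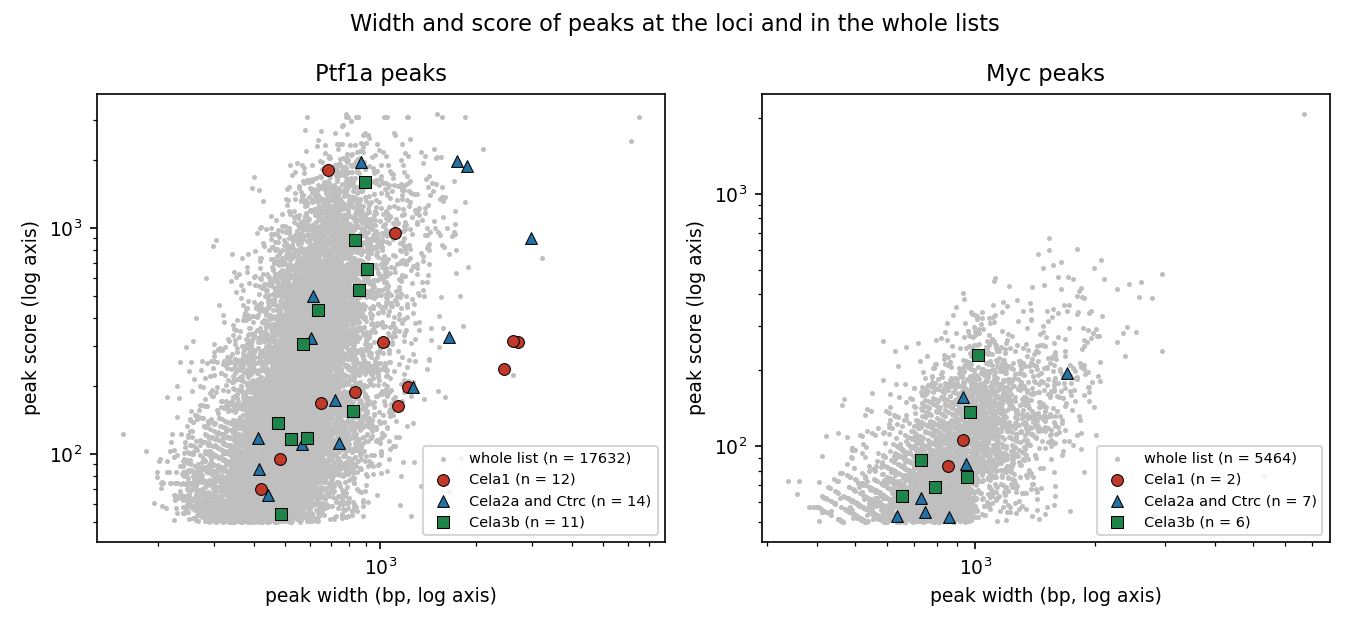
Score against width in bp (both log axes) for Ptf1a peaks on the left and Myc peaks on the right. Grey points are the whole lists of 17632 and 5464 peaks and coloured symbols are peaks of the windows. Several Cela1 and Cela2a and Ctrc peaks lie to the right of the grey Ptf1a cloud, wide for their score, while Myc peaks of the windows lie within theirs.

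Many Ptf1a peaks of all 3 windows were wide for the list, and the widest lay at Cela1 and at Cela2a and Ctrc. Of the 10 widest Ptf1a peaks of the list 4 lay in the windows, and of the 20 widest 6, although the windows held 0.21% of the list. By score, 2 of the 100 and 5 of the 200 highest were members. In the top 10% by width, from 748 bp, were 8 of 12 Ptf1a peaks at Cela1, 6 of 14 at Cela2a and Ctrc and 5 of 11 at Cela3b, or 51.4% of all members (background 10.0%). Those 6 widest members were 3 at Cela1 and 3 at Cela2a and Ctrc. Of the Myc peaks, 1 of 15, or 6.67%, was in the top 10% of its list by width (background 10.0%). Whether the wide stretches also stand out in the inputs was not tested.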

How the data were processed

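Peaks of 1 Ptf1a and 1 Myc library were analysed. Per the submitters' processing notes, MACS 1.4.1, BWA 0.5.9-r16, FastQC 0.9.4 and CASAVA 1.8 took part, with build mm9. Parameters, threshold and use of inputs were not given in the sources used here. The score of a peak, as deposited by the authors, comes from the peak caller and has no stated scale. The lists give no reads, so depth is unknown. Start positions of the BED files were raised by 1, so that coordinates count from 1.

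A peak belonged to a window by its midpoint and was shared when at least 1 bp overlapped a peak of the other list. Named with position and score are the 3 highest-scoring peaks of each list and window and every overlapping pair. There is 1 library per factor and peaks are not replicates, so no test was made. Wilson intervals (95%) cover counting error only. Members and lists were chosen with earlier results of these data known. A planned protein comparison was not run. Upstream sequences were aligned globally with Biopython 1.88 (match 2, mismatch -1, gap open -5, gap extension -1). Python 3.11.15, numpy 2.4.6, pandas 2.3.3, scipy 1.17.1 and matplotlib 3.10.9 were used, and counting was tested on simulated data.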

Additional observations from a re-analysis of the deposited data

How the results depend on the processing

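Of 38 values under the alternatives, 28 stayed within 1.5 times (counts) or within the 95% interval (shares and medians) of the reported ones and 10 did not. Among the 28, the shared fraction of Ptf1a peaks fell from 0.351 to 0.233 above each list's median score. With only peaks of score 100 or more in both lists, the Myc peaks of the windows fell from 15 to 5, the shared share of Ptf1a peaks from 0.351 to 0.125 (4 of 32, as a fraction), and the share of stretches with at least as many Ptf1a peaks to 0.0205% for Cela1, 0.0167% for Cela2a and Ctrc and 0.0205% for Cela3b. Among peaks above each list's median score 9 Myc peaks were left. The largest Ptf1a chain held 7 and 3 peaks at Cela2a and Ctrc when joined at 5 and 1 kb, in place of 12, and 5 and 3 at Cela3b, in place of 9. At Cela1 it held 8 under both, in place of 9. The joining distance of 1 kb, the counts among the widest peaks and the comparison with other rich stretches were chosen after seeing the data. Under all alternatives run, fractions of 0.778 to 0.929 of Myc peaks were shared. With midpoints at most 500 bp apart, 12 of 15 were, since the pair on the edge of the Cela1 run dropped out. No replicate could be left out. No paired analysis was possible because there is a single library of each factor. With depth unknown, a site in 1 list may have been missed in the other.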
